A study of Homo sapiens with 4 samples.

Results

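The subunits of the mitochondrial respiratory chain and of the ATP synthase it drives were compared between fibroblasts before and after induction of FOXA2, and they were split by the genome that encodes them. Members were chosen by gene symbol: the NDUFA, NDUFB, NDUFC, NDUFS and NDUFV families of complex I, SDHA to SDHD of complex II, the UQCR genes of complex III, the numbered COX subunits of complex IV, the ATP5 genes of complex V, and the protein genes of mitochondrial DNA with symbols beginning MT-. A member had to reach 1 FPKM, a fragment count scaled to transcript length and to the size of the library, in at least 1 of the 2 conditions. The symbols matched 110 rows of the table, and 90 of its 14319 kept rows were members. Of these, 77 were encoded in the nucleus and 13 in mitochondrial DNA. Complex I held 39 nuclear and 7 mitochondrial members, complex II 4 nuclear members, complex III 9 and 1, complex IV 10 and 3, and complex V 15 and 2.

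The respiratory chain sits in the inner mitochondrial membrane. Complexes I and II pass electrons to ubiquinone, complex III passes them on to cytochrome c, and complex IV hands them to oxygen, while complexes I, III and IV pump protons that then drive complex V, the ATP synthase. A few hydrophobic core subunits are made inside the organelle from mitochondrial DNA, which is transcribed as long polycistronic RNAs that are later separated into single messengers. All other subunits, and the whole of complex II, are made from nuclear genes and imported, so that each mixed complex needs products of both genomes.

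The cells were BJ-5ta, human foreskin fibroblasts immortalized with telomerase, and all samples carried a doxycycline-inducible FOXA2 transgene in clonal derivatives grown under puromycin. FOXA2 is a forkhead transcription factor of endoderm that can bind closed chromatin. The 2 uninduced samples received no doxycycline and the 2 induced samples received it at 0.5 µg/ml. The labels also describe an overnight arrest in G1 with mimosine without saying which cultures received it, and they state neither the time of induction nor whether 1 or several clones were used. No sample with doxycycline but without the transgene was analysed here, so that effects of the drug and of FOXA2 cannot be told apart.

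For each gene and condition the table gave 1 FPKM value and its confidence bounds, and no value per sample. No test across samples was therefore possible, and no SD, n or p is given. The words rose and fell are used only of a gene whose deposited intervals in both conditions did not overlap. By that criterion 65 of all kept genes fell (0.454%) and 104 rose (0.726%), and among the respiratory chain members 0 fell and 0 rose. By a looser criterion, in which the interval of the difference excluded 0, 1.11% of all kept genes were lower and 1.26% higher, and again 0 members were in either set. What follows therefore gives levels and differences of value that lie within the deposited intervals of every member. A log2 difference is log2(FPKM + 1) in induced cells less the same in uninduced cells, so that it is compressed for low values.

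FOXA2 itself was at 4.82 FPKM in uninduced and 104 FPKM in induced cells, with intervals of 0.526 to 9.12 and 50.2 to 158 FPKM that did not overlap. All 10 fibroblast markers examined were kept, 6 with lower and 4 with higher values in induced cells and all with overlapping intervals. VIM, the intermediate filament vimentin, was at 2098 and 905 FPKM and THY1 at 388 and 92.5 FPKM, whereas the values of COL3A1 were 125 and 445 FPKM and those of the fibronectin gene FN1 863 and 2111 FPKM. Of markers of other cell types, 1 of 6 keratinocyte genes, 2 of 5 immune genes, 2 of 5 melanocyte genes, 1 of 5 hepatocyte genes and 0 of the endothelial and muscle genes were kept. Their summed FPKM, uninduced and induced, was 16.2 and 10.8 for keratinocyte, 1.39 and 3.52 for immune, 9.42 and 5.25 for melanocyte and 0.135 and 1.38 for hepatocyte genes. MITF (8.62 and 3.66 FPKM) made up most of the melanocyte sum and KRT10 (16.1 and 10.6 FPKM) most of the keratinocyte sum, while PMEL, PTPRC, CD14 and APOA1 had higher values in induced cells, none above 2.15 FPKM. At 0 in both conditions were KRT5 and KRT1, CD3E, PECAM1, CDH5 and KDR, DES, MYOD1 and MYOG, and TTR and HNF4A, and no melanocyte marker. The part of these cell types in the results was not tested. MKI67, a proliferation marker, was at 34.6 and 6.19 FPKM with overlapping intervals, and its part in the results was not tested. In RNA from a culture in bulk, fewer cells of a kind and less RNA per cell cannot be told apart.

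By genome, 67 of the 77 nuclear members and 7 of the 13 mitochondrial members had lower values in induced cells. The summed FPKM of the nuclear members was 8869.7 uninduced and 7006 induced, and that of the mitochondrial members 9199.8 and 8578. The median level of the nuclear members was 103 FPKM in uninduced and 84.3 FPKM in induced cells, and the median log2 difference over the 77 was -0.30. The median level of the mitochondrial members was 744 FPKM uninduced, that of MT-ATP6, and 621 FPKM induced, that of MT-ATP8. The median log2 difference over the 13 was -0.015, against 0.05 over all kept genes. Within each genome the 2 median levels fall on different genes, so that their ratio is not the difference of any 1 member. Both genomes together had 74 of 90 members below 0 (82.2%), against 46.3% of all kept genes, a share that depends on level and is given by level further on. The medians of both genomes were 0.28 apart on the log2 scale, a description of a single pair of columns that no replicate tests. At least 2-fold lower was 1 member, ATP5G1, against 6.03% of all kept genes, and at least 2-fold higher was 1, a minor second row of NDUFB8, against 9.2%.

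By deposited value, the mitochondrial share of the members' FPKM differed by a few percentage points between conditions. No interval or replicate was available for these shares. Mitochondrial genes supplied 50.9% of the members' summed FPKM in uninduced cells and 55.0% in induced cells. Within complex I their share was 55.1% and 60.3%, within complex III 32.4% and 36.1%, and within complex IV 67.9% and 70.4%. Complex V was the exception as deposited, with 36.9% uninduced and 35.9% induced. Its mitochondrial members, MT-ATP6 and MT-ATP8, share a locus, and their uninduced intervals start at 0. Their median log2 difference was -0.51 as deposited and -0.04 after quantile normalization, against -0.56 and -0.33 for the nuclear members of complex V. By deposited value, though not by interval, the genomes were separate in level. The lowest mitochondrial member, MT-ND5, stood at 369.6 and 366 FPKM, above the highest nuclear member, ATP5B, at 344 and 262 FPKM. Their intervals overlapped, at 169 to 570.5 and 154 to 534 FPKM uninduced and at 166 to 565 and 119.9 to 404 FPKM induced. The members together made up 3.26% and 3.23% of the summed FPKM of the table.

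**Figure D1:**
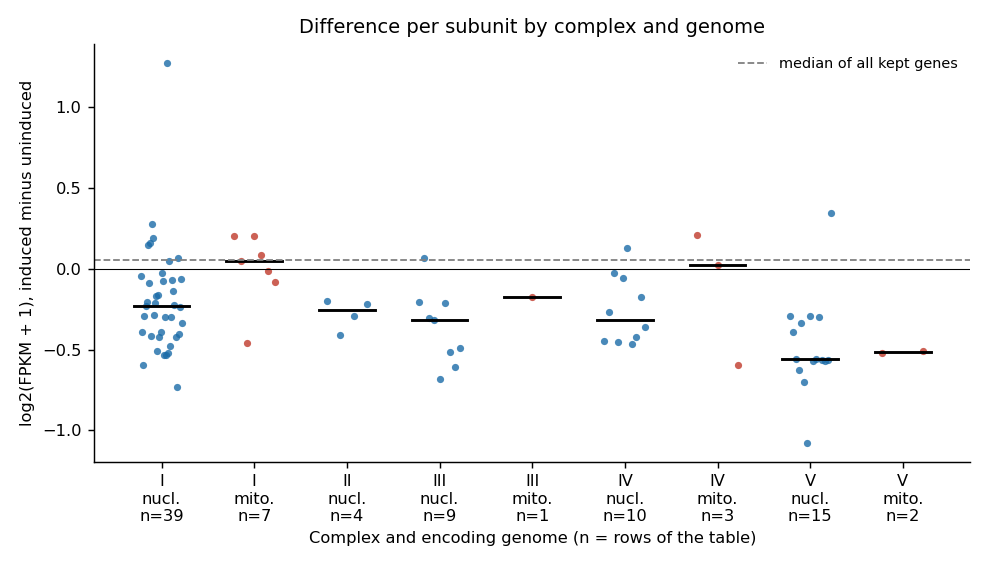
Log2 difference in FPKM (pseudocount 1, induced less uninduced) for each kept member by complex and encoding genome, 1 point per member (blue nuclear, red mitochondrial), with a line at the median of each set and a dashed line at that of all kept genes. Nuclear medians lay between -0.23 for complex I and -0.56 for complex V, and the mitochondrial medians of complexes I and IV at 0.05 and 0.02.

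The 13 mitochondrial genes lie close together on a circular genome, and both strands are transcribed in long units. They are described here in the order of the heavy-strand transcript. The ribosomal RNAs come first: MT-RNR1, the small one, was at 235 and 299 FPKM and MT-RNR2, the large one, at 569.8 and 734 FPKM, neither a member. MT-ND1, a membrane subunit of complex I near the ubiquinone site, stood at 580.2 FPKM uninduced (265 to 895) and 668 FPKM induced (302 to 1034). MT-ND2, a proton-pumping subunit, was at 497 and 513 FPKM. Both intervals of each gene overlapped, and both genes had the higher value in induced cells.

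The catalytic core of complex IV was read from the next stretch. MT-CO1, which carries the haem and copper centre where oxygen is reduced, was at 925 FPKM uninduced (356 to 1494) and 1069 FPKM induced (397 to 1741). MT-CO2, which accepts electrons from cytochrome c, was at 1132 FPKM (516 to 1749) and 1150.3 FPKM (539 to 1762), the highest member in both conditions. The values of MT-CO2 differed by 0.02 on the log2 scale.

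As deposited, the 4 neighbours that follow had lower values in induced cells. MT-ATP8 was at 884 and 621 FPKM, MT-ATP6, the proton channel subunit of the ATP synthase, at 744 and 519 FPKM, MT-CO3 at 1035 and 684 FPKM, and MT-ND3 at 520.0 and 379 FPKM. Their log2 differences were -0.51, -0.52, -0.60 and -0.46, with a median of -0.51, while the other 9 mitochondrial members had a median of 0.05. At equal FPKM sums the 4 differences were -0.31, -0.32, -0.40 and -0.26 in the same order. After quantile normalization they were -0.08, 0, -0.29 and 0.07, so that the set was no longer lower as a whole. This set of 4 was singled out after its values had been seen and gets no test. The intervals were wide: MT-ATP8 ran from 0 to 3265 FPKM uninduced and from 0 to 2211 FPKM induced, and MT-CO3 from 187 to 1883 and from 163 to 1206 FPKM. MT-ATP8, MT-ATP6 and MT-CO3 share a single locus in the table, MT:8366-9990 on hg19, and how reads were divided among them is not known from the sources used here.

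Some neighbouring mitochondrial genes overlap in sequence, and a read inside the overlap does not belong to 1 gene alone. The pair with the longest overlap and the pair that shares the other combined locus are shown, from GRCh38 with gene bounds of GENCODE 29, with 20 bases on either side. Capitals mark the bases that lie in both genes, 46 at MT:8527-8572 and 7 at MT:10760-10766.
MT-ATP8 and MT-ATP6: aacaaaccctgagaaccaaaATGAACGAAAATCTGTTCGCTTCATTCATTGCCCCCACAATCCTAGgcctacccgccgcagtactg
MT-ND4L and MT-ND4: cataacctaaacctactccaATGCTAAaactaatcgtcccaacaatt
In both runs the capitals open with ATG, the start codon of the second gene of the pair.

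Further along the strand the deposited values of both conditions lay closer together than at the 4 neighbours. MT-ND4L and MT-ND4, membrane subunits of complex I, share the locus MT:10470-12137 and were at 756 and 804 FPKM and at 843 and 972 FPKM. The interval of MT-ND4L ran from 0 to 2231 FPKM uninduced and from 0 to 2492 FPKM induced. MT-ND5, another pumping subunit, was at 369.6 FPKM (169 to 570.5) and 366 FPKM (166 to 565), which differed by -0.01 on the log2 scale. MT-CYB, the cytochrome b of complex III, was at 494 FPKM (233 to 756) and 437 FPKM (207 to 668).

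MT-ND6 is the only protein gene of the 13 on the light strand. It was at 419 FPKM uninduced (198 to 639) and 395 FPKM induced (184 to 606). The libraries did not keep strand, so its reads and antisense reads of the opposite strand cannot be told apart. The table's coordinates equalled GENCODE 29 for 8 of the 13 genes. All 22 mitochondrial tRNA rows were listed at 0 in both conditions. Nuclear copies of mitochondrial DNA can share reads with these genes, and the sources used here do not say how such reads were counted.

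**Figure D2:**
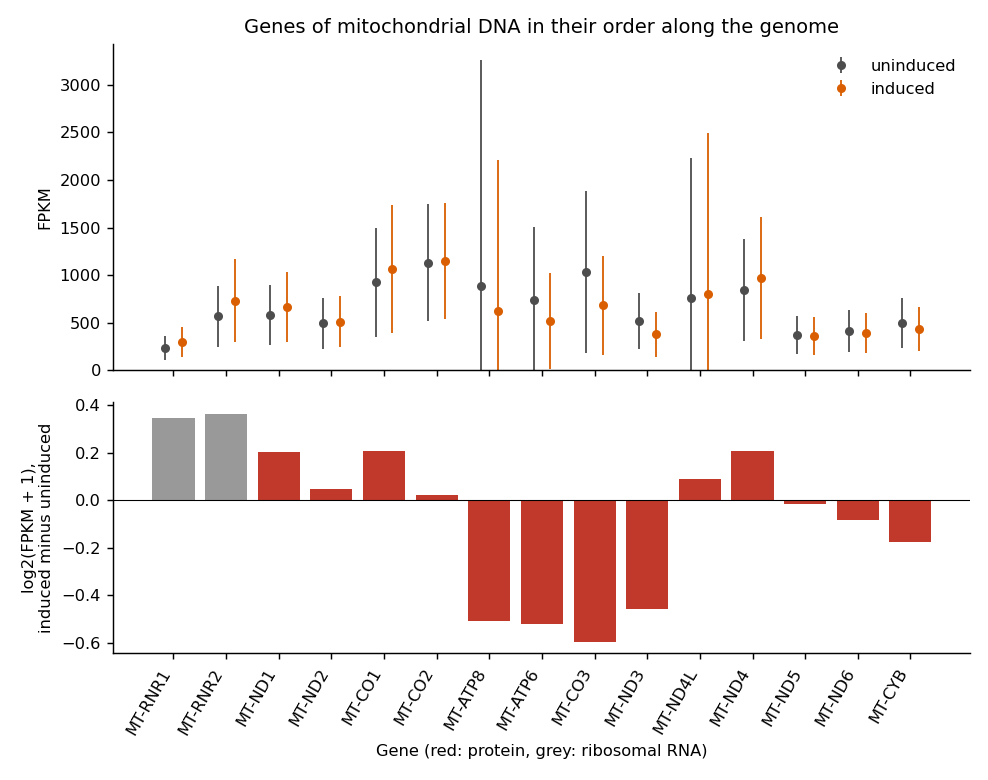
The upper panel gives FPKM of the mitochondrial rRNA and protein genes in genome order, uninduced (grey) and induced (orange), with the deposited confidence bounds as bars, and the lower panel gives their log2 differences. As deposited, the 4 neighbours from MT-ATP8 to MT-ND3 had lower induced values, with a median log2 difference of -0.51. The bars of both conditions overlap at every protein gene.

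The nuclear members are scattered over the chromosomes, and their start sites were examined for motifs known from respiratory genes. RefSeq promoters on GRCh38.p14, from 250 bases before to 50 bases after the start site, were matched to 60 of the 74 nuclear symbols. On either strand the NRF1 motif GCGCANGCG was in 20 of the 60 (33.3%), against 8.05% of all 27305 promoters of the same length. The ETS motif CCGGAAG, bound by the GABP factor among others, was in 18 (30%) against 10.7%, and the YY1 motif AAGATGGCG in 8 (13.3%) against 1.85%. The SP1 motif GGGCGG was in 36 (60%) against 44.6%, and the TATA motif TATAAA in 6 (10%) against 11.95%. NRF1 or ETS letters were in 33 promoters and both in 5. A match is a description of these letters and not a measured binding site.

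The medians with and without each motif were at most 0.1 apart. The median log2 difference was -0.25 with and -0.35 without the NRF1 letters, -0.30 and -0.29 for ETS, and -0.32 and -0.30 for YY1. The promoters of 4 nuclear members described below are shown, each with the lowest log2 difference of the nuclear members of complex I, II, III or V. For complex IV none is shown. Its lowest nuclear member, COX7A2, held no NRF1, ETS or YY1 letters. Capitals mark NRF1, ETS and YY1 letters on either strand, and the strand given is that of the gene. They lie at chr17:48892537-48892836 (plus) for ATP5G1, chr3:48609597-48609896 (minus) for UQCRC1, chr5:1801157-1801456 (plus) for NDUFS6 and chr1:17053983-17054282 (minus) for SDHB.
ATP5G1: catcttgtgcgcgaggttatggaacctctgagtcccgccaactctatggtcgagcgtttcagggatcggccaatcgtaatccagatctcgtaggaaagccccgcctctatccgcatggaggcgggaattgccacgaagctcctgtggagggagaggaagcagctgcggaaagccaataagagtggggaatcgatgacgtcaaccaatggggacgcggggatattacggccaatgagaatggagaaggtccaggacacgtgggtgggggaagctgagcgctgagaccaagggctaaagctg
UQCRC1: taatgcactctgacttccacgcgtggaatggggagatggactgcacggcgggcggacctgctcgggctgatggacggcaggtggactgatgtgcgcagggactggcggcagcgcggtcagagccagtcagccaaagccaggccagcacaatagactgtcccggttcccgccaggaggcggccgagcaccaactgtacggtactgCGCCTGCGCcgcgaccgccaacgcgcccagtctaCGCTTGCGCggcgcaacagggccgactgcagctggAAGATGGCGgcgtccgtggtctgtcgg
NDUFS6: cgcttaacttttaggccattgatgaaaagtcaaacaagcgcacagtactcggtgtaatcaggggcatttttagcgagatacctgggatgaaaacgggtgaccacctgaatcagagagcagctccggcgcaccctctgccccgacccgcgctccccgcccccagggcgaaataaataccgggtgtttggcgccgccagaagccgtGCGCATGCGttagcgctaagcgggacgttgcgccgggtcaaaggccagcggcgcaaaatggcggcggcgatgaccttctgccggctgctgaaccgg
SDHB: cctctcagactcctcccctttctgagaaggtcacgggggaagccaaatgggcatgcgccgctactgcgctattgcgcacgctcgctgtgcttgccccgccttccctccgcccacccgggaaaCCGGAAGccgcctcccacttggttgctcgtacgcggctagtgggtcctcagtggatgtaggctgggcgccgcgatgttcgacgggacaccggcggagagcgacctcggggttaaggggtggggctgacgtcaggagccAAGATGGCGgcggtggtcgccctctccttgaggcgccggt
ATP5G1, with the lowest log2 difference of all members, held none of the 3 motifs. UQCRC1 held NRF1 letters starting 46 and 12 bases before the start site and YY1 letters at base 24 after it. NDUFS6 held NRF1 letters 46 bases before its start site, and SDHB held ETS letters 128 bases before and YY1 letters at base 11 after.

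Complex I oxidizes NADH. Its 39 nuclear members had a median log2 difference of -0.23, and 32 lay below 0. That median was -0.04 with both columns scaled to the same FPKM sum, -0.09 after quantile normalization and -0.14 with no filter on low values. The unfiltered value takes in rows at 0 in both conditions, whose log2 difference is 0, and so is drawn toward 0. The 7 nuclear subunits of the catalytic core, which carry the flavin and the iron-sulfur clusters, had a median of -0.14 and the other 32 a median of -0.26. By family, the medians were -0.21 for NDUFA, -0.35 for NDUFB, -0.21 for NDUFC, -0.26 for NDUFS and -0.23 for NDUFV. NDUFA4, placed here by its name, is now regarded as a subunit of complex IV, and was at 57.02 and 53.7 FPKM.

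The largest of these differences were in accessory subunits. NDUFS6, a zinc-binding accessory subunit needed for assembly (chr5:1801514-1816719 on hg19), was at 62.7 FPKM uninduced (19.0 to 106) and 37.3 FPKM induced (8.08 to 66.5), 1.68 times lower in value. NDUFA11, a membrane accessory subunit (chr19:5865837-5904017), was at 164 FPKM (61.7 to 267) and 108 FPKM (29.9 to 187). The intervals overlapped for both. NDUFS5, the nuclear member of complex I with the highest mean, was at 175 and 131 FPKM.

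A few nuclear members of complex I had higher values in induced cells. NDUFA7 was at 41.2 FPKM uninduced (0 to 105) and 47.2 FPKM induced (0 to 114), and NDUFA5 at 46.1 FPKM (16.7 to 75.4) and 51.5 FPKM (18.8 to 84.3). Their log2 differences were 0.19 and 0.16. In the catalytic core, the flavoprotein NDUFV1, where NADH binds, was at 70.5 and 59.8 FPKM, and NDUFV2, which carries an iron-sulfur cluster, at 119.8 and 115 FPKM. NDUFS1, the largest core subunit, was at 62.4 and 50.6 FPKM. NDUFS7, which carries the last iron-sulfur cluster before ubiquinone, was at 50.8 and 53.3 FPKM. NDUFS3 and NDUFS8 were at 63.2 and 57.4 FPKM and at 103 and 77.5 FPKM.

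Complex II, or succinate dehydrogenase, links the citric acid cycle to the chain and has no mitochondrially encoded subunit. All 4 members lay below 0, with a median log2 difference of -0.25, which was -0.06 at equal FPKM sums and -0.08 after quantile normalization. SDHA, the flavoprotein that oxidizes succinate, was at 65.2 FPKM uninduced (29.6 to 101) and 56.7 FPKM induced (24.0 to 89.3). SDHB, the iron-sulfur subunit (chr1:17345217-17380665 on hg19), was at 94.5 FPKM (31.3 to 158) and 70.9 FPKM (20.4 to 121). The membrane anchors SDHC and SDHD were at 96.5 and 78.6 FPKM and at 81.4 and 69.9 FPKM. The order of the levels, SDHC, SDHB, SDHD and SDHA, was the same in both conditions, and the intervals of neighbours in that order overlapped.

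Complex III carries electrons from ubiquinol to cytochrome c. Of its 9 nuclear members 8 lay below 0, with a median of -0.32, which was -0.12 at equal FPKM sums and -0.49 over members alone at their locus. Here and below, a member counts as alone where no other kept row has the same locus. UQCRC1, a core protein of the matrix arm (chr3:48636435-48648409 on hg19), was at 190.4 FPKM uninduced (71.0 to 309.7) and 119 FPKM induced (37.8 to 199), 1.61 times lower in value. UQCRH, the hinge protein at the cytochrome c docking site (chr1:46769303-46782448), was at 184 FPKM (77.6 to 291) and 121 FPKM (42.8 to 198). UQCRFS1, the Rieske iron-sulfur protein, was at 61.4 and 42.6 FPKM. UQCR11 was the member above 0, at 80.2 and 84.3 FPKM. A second row of this symbol at the same locus was at 20.05 and 16.1 FPKM, a log2 difference of -0.30. All of these intervals overlapped between conditions.

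Complex IV reduces oxygen. Of its 10 nuclear members, which surround the mitochondrially encoded core, 9 lay below 0, with a median of -0.32. That median was -0.12 at equal FPKM sums, -0.07 after quantile normalization and -0.05 with no filter on low values. The unfiltered value takes in rows under the filter, most of them at 0 in both conditions, and so is drawn toward 0. COX8A, the highest, was at 274 FPKM uninduced (66.6 to 481) and 213 FPKM induced (38.8 to 387). COX6B1, on the intermembrane side, was at 130.2 FPKM (49.5 to 211) and 94.98 FPKM (31.7 to 158). COX7A2 (chr6:75947391-75960039 on hg19), the widely expressed isoform of subunit VIIa, was at 142 FPKM (34.0 to 249) and 102 FPKM (21.3 to 183). COX7A1, the isoform best known from heart and muscle (chr19:36641824-36643771), was at 34.4 FPKM (3.49 to 65.4) and 37.7 FPKM (0 to 77.8), the member above 0. COX7A1 made up 19.6% of the summed FPKM of these isoforms in uninduced and 26.9% in induced cells.

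The nuclear members of complex V had a median of -0.56, with 14 of 15 below 0. It was -0.36 at equal FPKM sums and -0.33 after quantile normalization. As deposited it was the lowest nuclear median of the 5 complexes, but over members alone at their locus complex III, at -0.49, lay below complex V, at -0.48. Its catalytic head and central stalk (5 genes) had a median of -0.39, the ring of c subunits (3 genes) -0.57, the peripheral stalk (4 genes) -0.56 and the small membrane subunits (3 genes) -0.56. ATP5B, the catalytic beta subunit and the highest nuclear member (chr12:57031959-57039798 on hg19), was at 344 FPKM uninduced (154 to 534) and 262 FPKM induced (119.9 to 404). ATP5A1, the alpha subunit, was at 272 and 222 FPKM. ATP5F1, of the peripheral stalk (chr1:111981260-112005395), was at 225 FPKM (64.3 to 386) and 138 FPKM (42.8 to 233).

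The c ring is built from a single kind of mature protein that is encoded by 3 nuclear genes. ATP5G1 (chr17:46952222-47006418 on hg19) was at 157 FPKM uninduced (0 to 351) and 73.9 FPKM induced (0 to 185), a value 2.12 times lower with a log2 difference of -1.08. ATP5G2 was at 225 and 184 FPKM and ATP5G3 at 192 and 129 FPKM. ATP5G1 made up 27.3% of their sum in uninduced cells and 19.1% in induced cells, and the sum was 574 and 386 FPKM. Both intervals of ATP5G1 reach 0, and its locus is shared with 1 other kept row. ATP5O, the oligomycin sensitivity protein that joins the peripheral stalk to the head (chr21:34876238-35349992), was the member above 0, at 130.1 FPKM (0 to 371) and 166 FPKM (0 to 421). The locus of ATP5O is shared with 5 other kept rows.

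**Figure D3:**
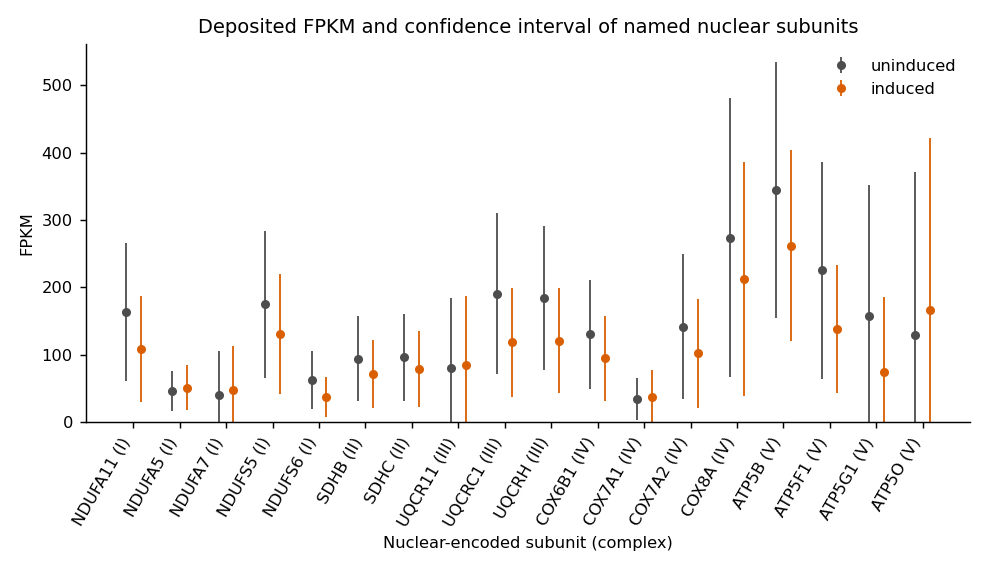
FPKM of the named nuclear members, ordered by complex, in uninduced (grey) and induced (orange) cells, with points at the deposited values and bars for the deposited confidence intervals. The bars of both conditions overlap for every gene shown, and ATP5G1, at 157 and 73.9 FPKM, has bars that reach 0.

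Of the 3 second rows of a symbol, that of UQCR11 was at 20.05 and 16.1 FPKM and the others were low. The second row of NDUFA7 was at 2.18 and 2.86 FPKM and that of NDUFB8 at 0.726 and 3.18 FPKM, each with both intervals starting at 0. That NDUFB8 row passed the filter only through its induced value, and the other 89 members passed in both conditions. Under the filter lay 20 matching rows, 14 of them duplicates on patch or alternate scaffolds, and 18 of the 20 were at 0 in both conditions. A second row of SDHD (0.048 and 0.544 FPKM) and COX8C (0 and 0.142 FPKM) were the rows with any value. The tissue-restricted isoforms COX6A2, COX6B2 and COX7B2 and the copy ATP5L2 were at 0 in both conditions.

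The nuclear difference was read beside that of other genes of the same level, since it grew with level in the table as a whole. At a mean of 30 to 100 FPKM, 35 nuclear members had a median log2 difference of -0.22, against -0.13 over the 3291 kept genes in that range, and 82.9% of these members lay below 0 against 60.4% of those genes. At 100 to 300 FPKM, 37 nuclear members had a median of -0.44, against -0.34 over 774 genes, and 94.6% lay below 0 against 72.5%. At 300 FPKM or more, all 215 kept genes had a median of -0.68 with 83.7% below 0, ATP5B was at -0.39 and the 13 mitochondrial members had a median of -0.015 with 53.8% below 0. Over the 77 nuclear members, levels in both conditions were close, with Pearson r of 0.97 on log2 values and Spearman rho of 0.95, and the log2 difference had a rho of -0.36 with mean level. These correlations are across genes of the same pair of columns, share the libraries and their depth, and are given as description.

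**Figure D4:**
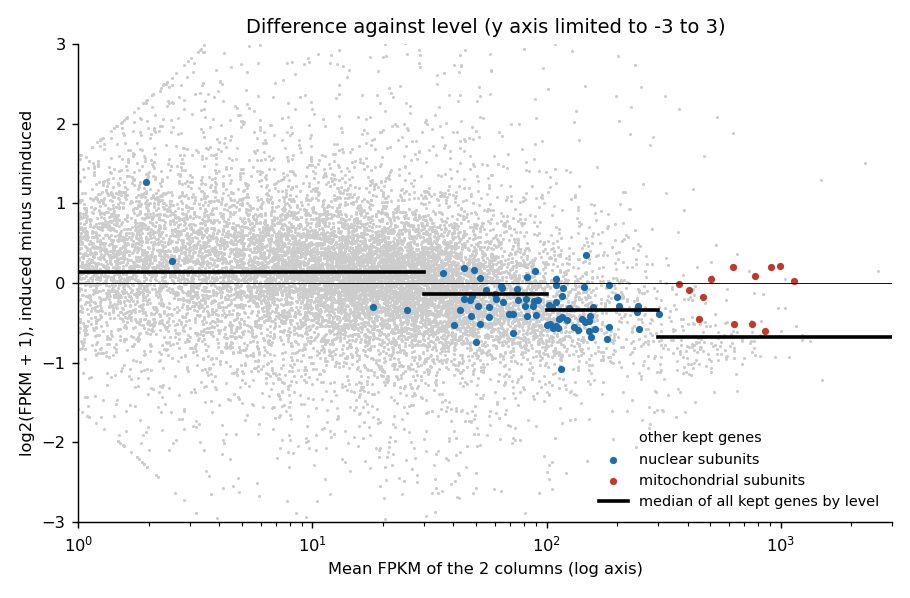
Log2 difference of the kept genes against mean FPKM of both conditions on a log axis, with nuclear members in blue, mitochondrial members in red and black lines at the medians of all kept genes by range of level. Genes beyond the axis limits are not drawn. All kept genes of 300 FPKM or more had a median of -0.68, and the 13 mitochondrial members in that range a median of -0.015.

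The sign of the mitochondrial median depended on how the columns were scaled, whereas the nuclear median changed in size and stayed below 0. Over 4 scalings, the deposited one included, 70 of the 90 members kept the same sign. The summed FPKM of the table was 553536 uninduced and 482743 induced, and scaling both to the same sum multiplied the induced values by 1.15 and moved the median of all genes from 0.05 to 0.23. The nuclear members below 0 then numbered 55 of 77 and the mitochondrial members 4 of 13, against 34.5% of all kept genes. After quantile normalization they numbered 56 and 2, against 51.2% of all kept genes. The nuclear median was -0.10 at equal sums and -0.11 after quantile normalization, and the mitochondrial median 0.18 and 0.42. The nuclear median relative to that of all genes was -0.35 as deposited, -0.33 at equal sums and -0.09 after quantile normalization, and the mitochondrial median relative to it was -0.07, -0.05 and 0.44.

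Genes that serve the chain without being members were examined as 9 lists with 127 kept genes. None rose or fell by the deposited intervals, against 0.726% and 0.454% of all kept genes. Of the 127, 92 lay below 0, against 46.3% of all kept genes, a share not matched for level here. Their median log2 difference was -0.24. Cytochrome c itself, CYCS, was at 116 FPKM uninduced (40.9 to 190.2) and 53.6 FPKM induced (12.2 to 94.99), and CYC1, the cytochrome c1 of complex III that the symbols did not match, at 89.1 and 61.5 FPKM. The list they belong to held other subunits and carriers that the symbols missed, related genes such as ATPIF1, and the ribosomal RNAs MT-RNR1 and MT-RNR2. Its 13 kept genes had a median of -0.30 with 9 below 0. MT-RNR1 and MT-RNR2 lay above 0, with log2 differences of 0.34 and 0.36. COX4I1, the common isoform of complex IV subunit 4, was at 255 and 218 FPKM, and COX4I2 was listed at 0 in both.

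The assembly factors, which build the complexes but do not stay in them, had medians below 0. Those of complex I (15 kept genes) had a median of -0.30 with 12 below 0, of complexes II and III (10) -0.21 with 7, of complex IV (25) -0.27 with 19 and of the ATP synthase (3) -0.17 with 2. NDUFAF2, a complex I chaperone, was at 77.1 and 49.4 FPKM, and COA1 at 59.5 and 26.9 FPKM. UQCC2, needed for making cytochrome b, was at 90.1 and 56.2 FPKM, and C11orf83, a complex III assembly factor, at 11.1 and 5.19 FPKM. For complex IV, COA6, which helps deliver copper, was at 51.9 and 25.9 FPKM and COX20, a chaperone of COX2, at 26.9 and 14.2 FPKM. ATPAF2 and TMEM70, of the ATP synthase, were at 16.2 and 13.3 FPKM and at 24.0 and 21.2 FPKM. All of these intervals overlapped.

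The machinery that copies and reads mitochondrial DNA was examined beside the mitochondrial members. Genes of replication and the nucleoid (16 kept) had a median of -0.25 with 12 below 0, and ATAD3A and ATAD3B, membrane ATPases bound to nucleoids, were at 35.2 and 19.1 FPKM and at 16.6 and 8.46 FPKM. Genes of transcription and RNA handling (27 kept) had a median of -0.15 with 20 below 0. TFB1M, the methyltransferase of the small ribosomal RNA, was at 24.9 and 14.8 FPKM. PNPT1, the polynucleotide phosphorylase that degrades mitochondrial RNA, was at 19.1 FPKM uninduced (5.31 to 32.9) and 58.6 FPKM induced (23.5 to 93.6). Its log2 difference of 1.57 was the largest above 0 in this list. Its intervals overlapped, but the interval of its difference excluded 0. That held for 1 gene of the 127, a share no larger than the 1.26% of all kept genes that were higher by this criterion.

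Regulators and carriers complete the description. Nuclear regulators of respiratory genes (13 kept) had a median of -0.07 with 8 below 0: NRF1 was at 11.3 and 5.79 FPKM, MYC at 28.9 and 17.9 FPKM, and PPARGC1A, the PGC-1 alpha coactivator, at 0.145 and 0.0941 FPKM, under the filter. Uncoupling and ADP exchange genes (5 kept) had a median of -0.67 with 3 below 0, which were SLC25A5, SLC25A6 and SLC25A3. The kept uncoupling gene UCP2 and NNT lay above 0, with log2 differences of 0.22 and 0.10. SLC25A5 and SLC25A6, carriers that exchange ADP for the ATP made by complex V, were at 224 FPKM (105 to 342) and 95.5 FPKM (42.3 to 149) and at 187 FPKM (87.8 to 286) and 112 FPKM (50.01 to 173). SLC25A5 and CYCS belong to families with many processed copies in the genome, which can take part of their reads. PPARGC1A, COX4I1 and COX4I2 were named for their role after their values had been seen, and SLC25A3, UCP2 and NNT likewise to complete their list.

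**Figure D5:**
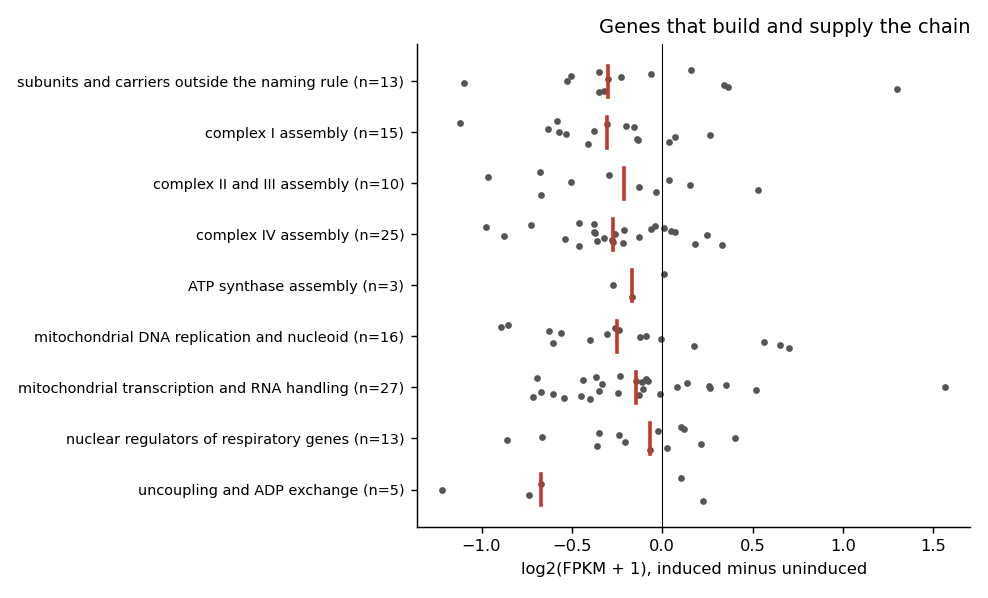
Log2 difference of the kept genes of the 9 lists of assembly, maintenance, regulation and carrier genes, 1 point per gene with a line at each median. The medians lie between -0.67 for uncoupling and ADP exchange and -0.07 for nuclear regulators, and PNPT1 stands at 1.57.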

How the data were processed

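RNA-seq of 2 uninduced and 2 induced samples was described by the labels, from column-purified total RNA and libraries that do not keep strand, per the labels' protocols. The submitters' processing notes name TopHat and the hg19 build. The aligner's version, the quantifier and its settings were not given in the sources used here. FPKM values were deposited by the authors, 1 per gene and condition, with confidence bounds as further values, per the file headers. The headers state neither the confidence level nor whether a column joins the samples of a condition. The table held 63651 rows, and 3 value columns of another condition were not used. The table's start positions, which count from 0, were raised by 1.

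Rows were kept at 1 FPKM or more in either condition, and log2 differences used a pseudocount of 1. With 1 value per condition the planned tests per sample were not possible, so non-overlap of the deposited intervals took their place. The members, lists and roles were chosen with earlier results of these data known. Named were all mitochondrial members and, per complex, the highest nuclear member and up to 2 with the largest difference in each direction at a mean of at least 5 FPKM, every member that rose or fell, rows within 0.5 FPKM of the filter's 1 FPKM, and of each list any that rose or fell and the 2 with the largest difference at a mean of at least 5 FPKM. Members named beyond this rule illustrate a role and were picked with their values known. Lists are described by counts and medians, and markers of other cell types were included.

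FPKM sums give no depth. In all, 2973 genes with 1 start site had values above 0 and below 1 FPKM in both columns. Their most frequent ratio of induced to uninduced value was 0.86 (131 genes within 0.01). It would be the step from 1.16 times more fragments in the induced column if values were scaled to each column's own total. Whether they were is not known from the sources used here. Promoters came from RefSeq tables, in which 14 nuclear symbols had no entry used here. Scripts ran in Python 3.11.15 with pandas 2.3.3, numpy 2.4.6 and matplotlib 3.10.9 and were tested on simulated data. The simulated intervals were much narrower than the deposited ones. That test therefore does not show how many changes would be missed with the deposited intervals. Alternatives changed the scaling, pseudocount, filter and member rows.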

Additional observations from a re-analysis of the deposited data

How the results depend on the processing

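The nuclear median log2 difference of -0.30 stayed below 0 under all 8 alternatives. It was -0.10 at equal FPKM sums, -0.11 after quantile normalization and -0.10 at equal sums without mitochondrially encoded rows, and it moved by less than 0.1 under the other 5. The mitochondrial median of -0.015 lay close to 0 and turned to 0.18 at equal sums, 0.42 after quantile normalization and 0.18 at equal sums without mitochondrially encoded rows. It was 0.0041 over members alone at their locus and 0.045 without MT-ATP8, MT-ATP6, MT-CO3 and MT-ND3. The mitochondrial minus nuclear median of 0.28 was 0.53 after quantile normalization and between 0.21 and 0.34 under the others. Counts of members that rose or fell were 0 under every alternative run. The mitochondrial median of complex I was -0.015 over members alone at their locus. That of complex III, MT-CYB alone, was 0.021 at equal sums, 0.024 at equal sums without mitochondrially encoded rows and 0.35 after quantile normalization. The mitochondrial share of the members' FPKM was 49.4% uninduced and 57.2% induced after quantile normalization, and 48.7% and 52.9% with the subunits the symbols missed added. Taking 1 row per symbol, members alone at their locus, and the set without the 4 neighbours were alternatives chosen after seeing the data. No mitochondrial member of complex V is alone at its locus, so that this alternative gave no value there. The cause of these shifts was not tested.

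No paired analysis was possible because no column of the table belongs to a single sample, and for the same reason no replicate was left out. Depth per column is unknown, and the upper bounds of a typical nuclear member lay 71.5% above its uninduced and 75.3% above its induced value, so that differences of the size described here were not detectable with these intervals. A library that departs from its group cannot be seen.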
